A study of Homo sapiens with 2 samples.

Results

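Oxidative phosphorylation genes encode the 5 protein complexes of the inner mitochondrial membrane that pass electrons to oxygen and make ATP. They were chosen by symbol, as those starting with NDUFA, NDUFB, NDUFC, NDUFS, NDUFV, UQCR, COX4 to COX8, ATP5, SDHA to SDHD or MT-, without pseudogene and antisense symbols. A gene was a member where it reached 5 CPM (UMIs per 1000000 UMIs of the library, a UMI being the tag of a single captured RNA molecule) in at least 1 library. Of 36601 genes in the files, 113 carried such a symbol and 105 were members. MT-ATP6 and MT-ATP8 end in the letters that mark pseudogenes elsewhere and were kept; the letters alone would leave 103 members. The members were 79 nuclear-encoded subunits, 12 assembly factors, 1 inhibitor (ATP5IF1) and 13 mitochondrially encoded subunits.

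Both libraries held astrocyte progenitors of the human embryonic stem cell line H7, cultured with the cytokine LIF and then the growth factors BMP4 and FGF1. The first came from day 160 and the second from day 220, each from 3 separate differentiations that were pooled after Accutase dissociation and run on the 10x 3′ kit, version 3.1. No label separates the differentiations, so each day was 1 sample with no replicate, and no test or p-value could be given. The protocol text for day 220 repeats day 160, while its title and time label say 220, and the deposited names start with different letters (meaning not given in the sources used here). Time and any other difference between the cultures cannot be told apart.

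After filtering, day 160 had 9425 cells with 116115986 UMIs and a median of 10058 UMIs per cell, and day 220 had 521 cells with 25833964 UMIs and a median of 46433. The libraries shared 3 cell barcodes. Of 15 astrocyte markers, 14 reached 5 CPM at day 160 and 11 at day 220, and they summed to 3960.9 and 3632.0 CPM. They differed in direction. GFAP was at 549.5 and 135.4 CPM and ALDH1L1 at 2.14 and 0.310 CPM. S100B was at 171.4 and 567.0 CPM, APOE at 25.17 and 194.2 CPM and CRYAB at 28.91 and 151.8 CPM. Of 18 neuronal precursor markers, 15 reached 5 CPM in each library, with sums of 4518.6 and 2649.4 CPM. All 11 radial glia markers reached 5 CPM in both libraries, and none of 5 microglia or 4 endothelial markers did in either. Genes with long introns lay higher at day 220. The median log2 ratio over genes with under 1000 intron bases was -0.39, and that over genes with 300000 or more was 2.54. The part of this in the differences described here was not tested.

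Complexes I to IV are the respiratory chain: complex I takes electrons from NADH, complex II from succinate, complex III hands them to cytochrome c, and complex IV passes them to oxygen. Complex V, the ATP synthase, uses the proton gradient that complexes I, III and IV build. Most subunits are encoded in the nucleus and imported, while a small set is transcribed inside the organelle, so every complex but II is assembled from products of both genomes. Astrocytes are known for high glycolysis with a working respiratory chain.

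The reference coding sequences (GENCODE 29, GRCh38) of MT-ATP8, MT-ND4L and ATP5F1E are shown because the first pair were the members with the highest ratios, and the third was the highest nuclear-encoded subunit. MT-ATP8 (chrM:8366-8572, plus strand) shares its last 46 bases, in capitals, with MT-ATP6 (chrM:8527-9207), and MT-ND4L (chrM:10470-10766, plus strand) shares its last 7, in capitals, with MT-ND4 (chrM:10760-12137). Each pair is known to be carried on a shared transcript, so how its counts were split is uncertain. ATP5F1E (chr20:59025467-59032382, minus strand), the epsilon subunit of the ATP synthase, has the shortest coding sequence of these, 156 bases with its stop codon, against 207 and 297.
MT-ATP8: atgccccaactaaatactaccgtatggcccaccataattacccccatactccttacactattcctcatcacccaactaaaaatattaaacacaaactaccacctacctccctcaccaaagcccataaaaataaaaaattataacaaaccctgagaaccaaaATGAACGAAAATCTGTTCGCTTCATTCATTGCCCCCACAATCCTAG
MT-ND4L: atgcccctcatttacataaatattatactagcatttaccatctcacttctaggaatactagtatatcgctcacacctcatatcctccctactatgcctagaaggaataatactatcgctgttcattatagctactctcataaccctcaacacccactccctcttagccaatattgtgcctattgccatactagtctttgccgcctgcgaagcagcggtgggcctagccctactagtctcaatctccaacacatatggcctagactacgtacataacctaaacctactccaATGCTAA
ATP5F1E: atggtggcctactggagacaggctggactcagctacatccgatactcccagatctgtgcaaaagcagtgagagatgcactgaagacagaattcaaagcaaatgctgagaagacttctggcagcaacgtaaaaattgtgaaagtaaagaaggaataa

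With library totals as the scale, 4 members passed 2-fold between the libraries. At day 220, 3 of the 105 were higher by that much (MT-ATP8, MT-ND4L and NDUFAF6) and 1 was lower (UQCRHL, which reached 5 CPM at day 160 only). Of all 11984 genes tested, 23.6% were higher and 5.03% lower. With edgeR TMM library sizes 1 member was higher and 24 were lower. The shares of all genes above are for library totals, and those with TMM are not given here. Log2 ratios are those of CPM + 1, day 220 over day 160, and intervals are exact at 95% and cover counting error only. Nuclear-encoded subunits had a median log2 ratio of -0.24, with 27 above 0 and 52 below, where all genes tested had a median of 0.16; with TMM they were at -0.69 and -0.27. Mitochondrially encoded genes had a median of 0.28, with 7 above 0 and 6 below; with TMM this median turned to -0.18, as the median of all genes moved by -0.43. The median of mitochondrial genes, in which each gene counts the same, exceeded the nuclear one by 0.52. By summed CPM the order was reversed, day 220 being at 0.754-fold for mitochondrial genes and 0.953-fold for nuclear-encoded subunits.

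**Figure D1:**
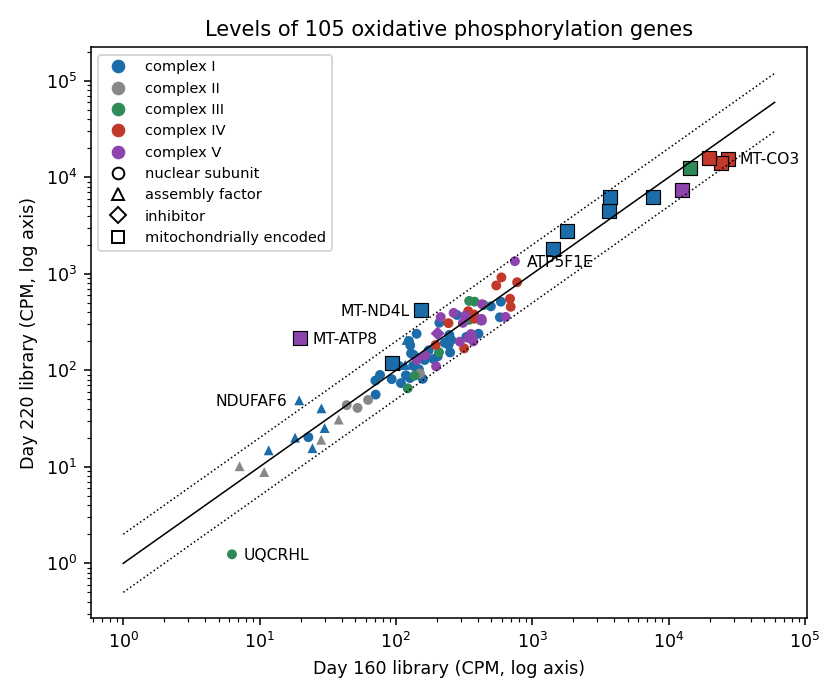
Level of each of the 105 members in the day 160 library (x axis, CPM, log scale) and the day 220 library (y axis, CPM, log scale), coloured by complex, with squares for mitochondrially encoded genes. The solid line is equality and the dotted lines are 2-fold; MT-ATP8, MT-ND4L and NDUFAF6 lie above the upper dotted line and UQCRHL below the lower one.

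The mitochondrially encoded genes took 11.67% of UMIs at day 160 and 8.80% at day 220, and nuclear-encoded subunits took 2.16% and 2.06%. UMIs of the first group thus outnumbered those of the second by 5.40 to 1 and 4.27 to 1. A cell passed only with at most 15% of UMIs from MT- genes, so this filter acts on the first share: without it the shares were 12.96% and 9.98%. Of cells with 1000 or more genes, 19.6% at day 160 and 10.6% at day 220 were over that limit.

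The mitochondrially encoded genes of different complexes differed in direction. As CPM, complex IV genes lay lower at day 220. MT-CO1, the catalytic subunit, was at 24131 CPM and 14112 CPM (0.585-fold, interval 0.583 to 0.587), and MT-CO3 was at 27106 and 15693 CPM. MT-CO2, which receives electrons from cytochrome c, was at 19953 and 15834 CPM. All 3 were lower at day 220, MT-CO2 excepted when set against its intron-length class or taken as a share of mitochondrial UMIs, and their summed share of UMIs was 7.12% and 4.56%. Complex I genes, which build the membrane arm of that complex, were higher in 6 of 7 cases. MT-ND3 was at 3715 and 6245 CPM (1.68-fold, interval 1.67 to 1.69), MT-ND2 at 1785 and 2806 CPM, and MT-ND1 at 3662 and 4440 CPM. MT-ND4 was the exception, at 7739 and 6298 CPM, and it too turned to higher against its intron-length class and as a share of mitochondrial UMIs. Their summed share was 1.86% and 2.21%, and the ratio of MT-ND to MT-CO UMIs was 0.261 and 0.485.

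MT-CYB, the complex III subunit that holds the quinone sites, was at 14423 CPM at day 160 and 12606 CPM at day 220, but was higher at day 220 against its intron-length class, as a share of mitochondrial UMIs, and with an MT- limit of 10% (log2 ratio 0.07). MT-ATP6, the proton channel subunit of the ATP synthase, was at 12480 and 7389 CPM. MT-ATP8, its small partner, was at 19.9 and 216.1 CPM, from 2312 and 5582 UMIs, which is 10.8-fold higher at day 220 (interval 10.3 to 11.4). MT-ND4L was at 153.9 and 421.4 CPM, 2.74-fold higher (interval 2.67 to 2.80), while its neighbour MT-ND4 was lower. MT-ND5 (1.27-fold) and MT-ND6 (1.26-fold), the 1 gene here read from the other strand, were slightly higher at day 220; with TMM library sizes MT-ND1, MT-ND5 and MT-ND6 turned to slightly lower. As shares of mitochondrial UMIs alone, which no scaling touches, MT-CO3 was at 23.2% and 17.8%, MT-CO1 at 20.7% and 16.0%, and MT-ATP6 at 10.7% and 8.40%. The other 10 were higher at day 220 on this measure. They include MT-CO2 at 17.1% and 18.0%, MT-CYB at 12.4% and 14.3%, MT-ND4 at 6.63% and 7.16%, MT-ND3 at 3.18% and 7.10%, and MT-ATP8 at 0.0171% and 0.246%. The overlap of MT-ATP8 and MT-ND4L with their neighbours, printed above, bears on these values, and its part in them was not tested.

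Among nuclear-encoded subunits, no gene was 2-fold higher and 1, UQCRHL, was 2-fold lower. It reached 5 CPM at day 160 only, so the minimum let it in through the day where it was high. UQCRHL is a near-identical copy of UQCRH, and with 728 and 32 UMIs its split from UQCRH is uncertain; it was at 6.27 and 1.24 CPM, while UQCRH was at 418.2 and 330.1 CPM. The next lowest were NDUFS7, an iron-sulfur subunit of complex I, at 157.3 and 81.7 CPM, COX5A of complex IV at 316.4 and 168.8 CPM, and UQCRC1, a core subunit of complex III, at 122.0 and 65.2 CPM. The highest were ATP5F1E at 745.9 and 1354 CPM (1.82-fold, interval 1.79 to 1.84), NDUFA1 of complex I at 141.8 and 239.5 CPM, ATP5ME of the ATP synthase at 213.0 and 356.6 CPM, and NDUFB1 of complex I at 124.6 and 201.4 CPM. Their coding lengths without the stop codon were 153, 210, 207 and 315 bases.

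**Figure D2:**
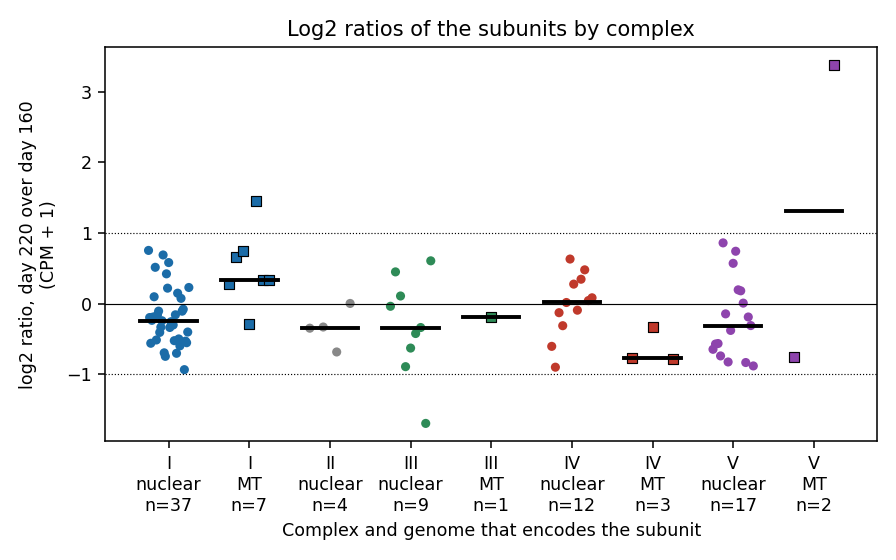
Log2 ratio (day 220 over day 160, CPM + 1) of each nuclear-encoded and mitochondrially encoded subunit, grouped by complex, with the median of each group as a bar and 2-fold as dotted lines. Of the 7 mitochondrially encoded genes of complex I, 6 sit above the nuclear median of that complex, and the 3 of complex IV sit below theirs.

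By complex, nuclear-encoded subunits had median log2 ratios of -0.24 in complex I (37 genes), -0.34 in complex II (4), -0.34 in complex III (9), 0.03 in complex IV (12) and -0.31 in complex V (17). Complexes I, III, IV and V hold genes of both genomes. The mitochondrial minus the nuclear median was 0.58 in complex I, 0.15 in complex III, -0.80 in complex IV and 1.62 in complex V. The last was over 2 mitochondrial genes, MT-ATP6 and MT-ATP8, that went opposite ways. Mitochondrial UMIs over nuclear-encoded subunit UMIs were 2.50 at day 160 and 3.42 at day 220 in complex I. They were 6.02 and 5.07 in complex III, 12.9 and 8.05 in IV, and 2.08 and 1.32 in V. In complexes III and V this ratio was thus lower at day 220, although the difference of medians was above 0. In complex II, the 1 complex with no mitochondrial gene, SDHC was at 150.0 and 92.8 CPM, SDHA at 52.3 and 40.8, SDHB at 62.4 and 49.4, and SDHD at 43.6 in both.

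Subunits of complexes I and III were then grouped by structure, in groups picked after their values were seen. In complex I, 6 of the 7 nuclear-encoded subunits of the catalytic core, which carry the flavin and the iron-sulfur clusters, were below 0, with a median of -0.53, against 21 of 30 accessory subunits with a median of -0.20. NDUFV1, the flavin subunit, was at 108.9 and 73.8 CPM, and NDUFS1 was the exception, at 70.7 and 78.3 CPM. In complex III, UQCRC1, UQCRC2 (137.0 and 88.1 CPM) and the iron-sulfur protein UQCRFS1 (207.1 and 154.0 CPM) were lower, while 3 of 5 small subunits were higher, UQCRQ being at 344.5 and 524.5 CPM and UQCR11 at 377.4 and 515.3 CPM.

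Groups of ATP synthase subunits were picked in the same way. In its F1 head, where ATP is made, the catalytic ATP5F1B was at 355.3 and 238.3 CPM, ATP5F1A at 340.3 and 216.7 CPM, the rotor subunit ATP5F1C at 294.3 and 198.3 CPM and ATP5F1D at 363.9 and 217.1 CPM. Only ATP5F1E of these 5 was higher at day 220. The 4 subunits of the peripheral stalk, which holds the head still, were all lower, ATP5PO being at 369.8 and 199.9 CPM and ATP5PB at 197.1 and 110.0 CPM. The 5 small membrane subunits (ATP5ME, ATP5MF, ATP5MG, ATP5MPL and ATP5MD) had a median of 0.19, from 0.0056 to 0.74, and ATP5MD was at 265.2 and 394.0 CPM. The 3 c subunit genes, also small and in the membrane, were all lower, with a median of -0.38. In complex IV, COX4I1, which binds the mitochondrially encoded core, was at 694.8 and 455.8 CPM, while COX6C was at 593.8 and 919.6 CPM and COX7C at 544.8 and 758.7 CPM. Coding length differs between these groups too, and what part it has in them was not tested.

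Assembly factors, which help build the complexes without staying in them, had a median log2 ratio of 0.05. NDUFAF6 was at 19.5 and 48.9 CPM (2.50-fold, interval 2.34 to 2.68) and NDUFAF8 at 119.7 and 206.6 CPM, while NDUFAF1 was at 24.4 and 15.6 CPM and SDHAF3 at 28.3 and 19.1 CPM. NDUFAF6 has 214283 annotated intron bases, and once each gene was set against the median of its intron-length class its log2 ratio was 0.03. ATP5IF1, which inhibits the ATP synthase when it runs backwards, was at 202.2 and 241.3 CPM.

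Tissue-specific isoforms of complex IV were at or near 0 in both libraries. COX4I2, COX6A2 and COX7A1 had 0 UMIs in either, and the limit of 3 UMIs set for a count of 0 corresponds to 0.0258 CPM at day 160 and 0.116 at day 220. Of the 3 genes for the c subunit of the ATP synthase, which encode the same mature protein, ATP5MC2 held 52.8% and 44.0% of their UMIs, ATP5MC3 held 35.4% and 40.3%, and ATP5MC1 held 11.8% and 15.8%.

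Short subunits lay higher than long ones within the nuclear-encoded set. Across these 79 genes the rank correlation of log2 ratio with coding length was -0.69, a description over genes that share their libraries and are not independent. The median log2 ratio was 0.22 for coding lengths under 300 bases (17 of 21 genes above 0), -0.15 from 300 to 450, -0.47 from 450 to 600, and -0.56 at 600 or more (18 of 19 below 0). The correlation was also negative within complex I (-0.58), III (-0.65), IV (-0.79) and V (-0.83). Cytosolic ribosomal protein genes, another set of short and abundant transcripts, had -0.75, mitochondrial ribosomal protein genes -0.29, the proteasome 0.43 and all tested genes 0.39, so the sign differed between lists. Over tested genes with under 10000 intron bases it was 0.04, and over all tested genes the log2 ratio had a rank correlation of 0.62 with intron length. These lists cover unlike lengths, as 9563 of 10994 tested genes had 600 or more coding bases. In the same 4 length classes the medians of all tested genes were -0.05, -0.26, -0.28 and 0.19. Those of tested genes with under 10000 intron bases were -0.10, -0.31, -0.42 and -0.36. Coding length is not transcript length, and the cause was not tested.

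**Figure D3:**
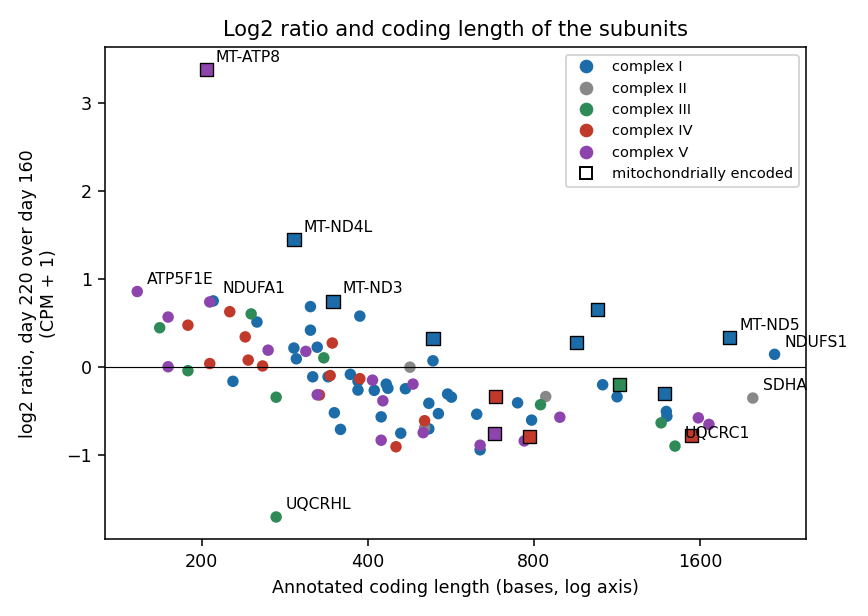
Log2 ratio (day 220 over day 160, CPM + 1) against annotated coding length in bases (log axis) for the 79 nuclear-encoded subunits, coloured by complex, and the 13 mitochondrially encoded genes as squares. ATP5F1E, the shortest, lies at 0.86, and 18 of the 19 nuclear-encoded genes of 600 bases or more lie below 0.

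The direction for the nuclear-encoded set as a whole depended on what it was measured against. As a share of UMIs that are not MT-, subunits were at 2.45% and 2.26%. Set against the UMIs of genes with under 10000 intron bases, nuclear-encoded members were higher at day 220, at 4.98% and 5.86%. This is a ratio and not a share, because members with longer introns were counted too. Among them were 26 subunits with 10000 to 30000 intron bases. With each gene set against its intron-length class, the median over subunits was -0.17 and that of mitochondrial genes 0.67.

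Lists of genes that work with oxidative phosphorylation were counted in the same way, beside the 23.6% of all genes that were 2-fold higher and the 5.03% that were lower. Of 78 mitochondrial ribosomal protein genes, which translate the MT- messages, 1 was 2-fold higher (MRPL53, which reached 5 CPM at day 220 only). In this list 71 lay below 0, with a median of -0.36, where 5050 of all 11984 genes tested lay below 0. Against intron-length classes its median was -0.20. Of 15 genes of glycolysis, 2 were 2-fold higher (ALDOA and HK1) and 2 were 2-fold lower, GAPDH at 2795 and 1281 CPM and LDHA at 115.2 and 55.7 CPM. Of 16 genes of the tricarboxylic acid cycle, which feeds the chain, 1 was 2-fold higher, OGDH, at 11.8 and 36.7 CPM. Among 8 regulators of mitochondrial biogenesis, 3 were 2-fold higher and 0 lower, NRF1 being at 6.83 and 47.1 CPM and PPARGC1A at 1.32 and 8.09 CPM. PPARGC1A reached 5 CPM at day 220 only, so the minimum let it in through the day where it was high. Set against intron-length classes, 1 of the 8 was higher and 0 lower. Of 15 genes for mitochondrial transcription and DNA, 0 passed 2-fold in either direction; of 36 carriers and assembly factors outside the symbols used here, 3 were higher and 0 lower, and 0 in either direction against their intron-length classes. On that measure 1 gene of the tricarboxylic acid cycle was higher and 0 lower, and 1 of glycolysis was higher and 2 lower. Of the mitochondrial ribosomal protein genes, 1 was higher and 3 lower. The share of all genes past 2-fold on that measure is not given here.

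RefSeq promoter windows of 300 bases (250 before the start to 50 after, GRCh38.p14) were found for 63 of the 79 nuclear-encoded subunits. Nuclear respiratory factor 1, ETS factors and YY1 are known regulators of these genes. The NRF1 motif, on either strand, was in 15 of 63 (23.8%), against 12.6% of promoters of tested genes and 6.29% of all promoters. The ETS motif CCGGAAG was in 30.2% against 20.3% and 10.7%, and the YY1 motif GATGGCGGC in 7.94% against 3.39% and 1.53%. The SP motif GGGCGG was in 60.3% against 70.8% and 44.6%, and the ERR motif TNAAGGTCA in 2 of 63 (3.17%) against 0.431% and 0.963%. Among the 21 subunits above a log2 ratio of 0 and the 42 below it, the NRF1 motif was in 23.8% and 23.8%, ETS in 42.9% and 23.8%, YY1 in 4.76% and 9.52%, SP in 47.6% and 66.7%, and ERR in 2 and 0 promoters. To show the NRF1 match on both sides, a stretch is printed with the NRF1 motif in capitals for ATP5ME (chr4:674461-674520, minus strand), which was higher, and UQCRC1 (chr3:48609659-48609718, minus strand), which was lower. A match describes the sequence and says nothing of binding.
ATP5ME: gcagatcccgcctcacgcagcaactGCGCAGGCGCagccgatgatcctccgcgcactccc
UQCRC1: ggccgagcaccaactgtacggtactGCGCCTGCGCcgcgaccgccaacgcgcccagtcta

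Each library was clustered alone with the members left out of the genes used, giving 12 clusters at day 160 and 7 at day 220. The MT- share ran from 10.5% to 12.4% over the clusters of day 160 and from 7.18% to 9.74% over those of day 220, with no overlap under the 15% limit. With cells over the limit put in their nearest cluster the ranges were 10.90% to 13.99% and 7.29% to 11.69%, which overlap. Nuclear-encoded subunits took 2.28% to 2.62% of non-MT- UMIs over day 160 clusters and 1.89% to 2.51% over day 220 clusters, which overlap. MT-ATP8 was at 11.5 to 25.4 CPM over day 160 clusters and at 166.0 to 287.1 CPM over day 220 clusters. In 9 of 105 members every day 220 cluster lay above every day 160 cluster, where 17.6% of all genes did, and in 24 members every one lay below, where 3.17% of all genes did. The 9 included MT-ND2, MT-ND3, MT-ND4L and MT-ATP8, and the 24 included MT-CO1, MT-CO3, MT-ATP6, COX4I1 and 7 of the ATP5 genes.

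**Figure D4:**
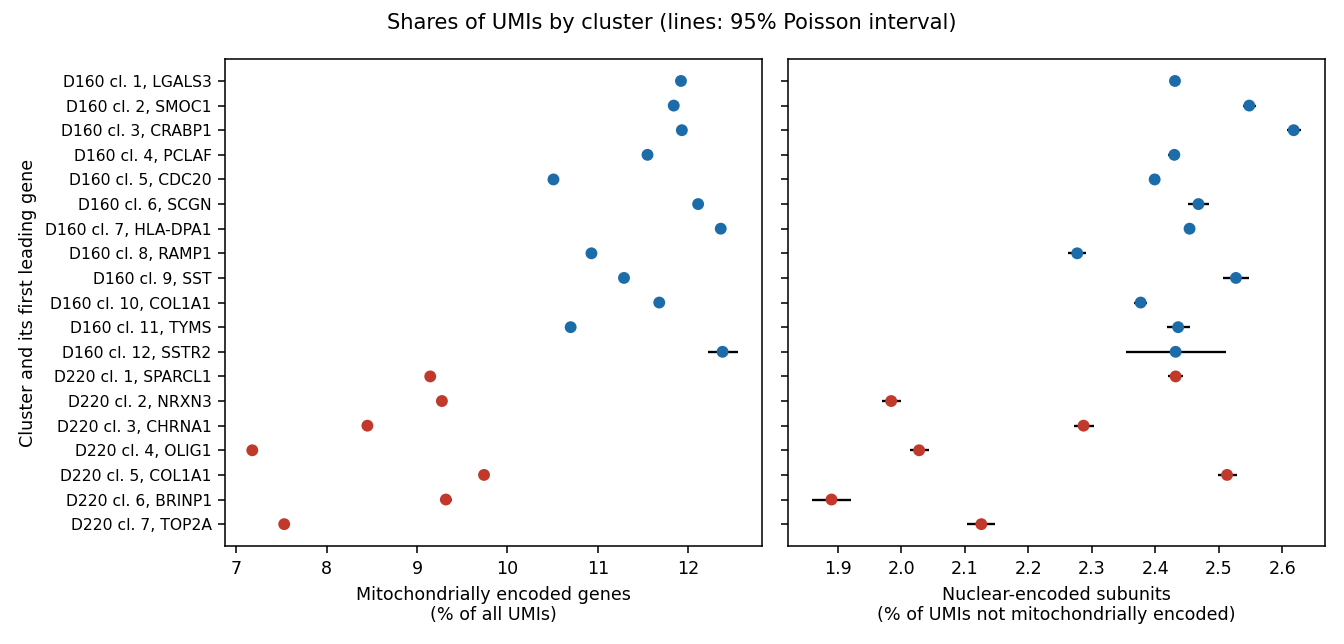
Share of UMIs from mitochondrially encoded genes (left, % of all UMIs) and from nuclear-encoded subunits (right, % of UMIs that are not MT-) in each cluster of day 160 (blue) and day 220 (red), named by its first leading gene, with 95% Poisson intervals as lines. Under the 15% limit MT- shares of the 2 days do not overlap, while nuclear shares do; MT- shares overlap once cells over the limit are added to their nearest cluster.

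Within a library, 98 of 105 members at day 160 and 92 at day 220 differed by less than 2-fold, as CPM + 1, between their lowest and highest cluster. The share of all genes that did so is not given here. At day 160, over the 11 clusters of at least 50 cells, NDUFAF6 had the widest range, from 11.8 CPM in a neuron-like cluster to 43.7 CPM in a cycling-like one, followed by NDUFC1, from 13.8 to 42.1 CPM. At day 220 all clusters were used, the smallest having 33 cells. NDUFAF8 ran from 77.4 CPM in a neuronal precursor-like cluster to 283.2 CPM in the astrocyte-like cluster. UQCRHL ran from 0.536 to 4.55 CPM on 1 and 4 UMIs. ATP5F1C was the steadiest there, at 186.7 to 209.3 CPM.

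Cell classes were named by their markers, not all of which were present. For mesenchymal-like cells COL1A1, TAGLN and ACTA2 were among the leading genes on both days. Of the 11 listed mesenchymal markers, 6 reached 5 CPM in that cluster at day 160 and 5 at day 220. Both libraries held 4 of the classes. In each, 0 nuclear-encoded subunits were 2-fold higher, where 23.7% of all genes in astrocyte-like, 26.3% in cycling-like, 20.2% in mesenchymal-like and 27.1% in neuronal precursor-like cells were. Subunits 2-fold lower numbered 1 of 79 in astrocyte-like cells (5.33% of all genes), 1 in cycling-like (3.31%) and 1 in mesenchymal-like cells (5.7%). This 1 was UQCRHL each time, on 7, 1 and 5 UMIs at day 220, and its split from UQCRH is uncertain. Neuronal precursor-like cells had 5 subunits lower (4.54% of all genes), with UQCRHL among them on 11 UMIs at day 220. Of the 13 mitochondrial genes, 2 were 2-fold higher and 0 lower in every one of these classes. Their median log2 ratio was 0.22 in astrocyte-like, -0.02 in cycling-like, -0.007 in mesenchymal-like and -0.09 in neuronal precursor-like cells.

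The astrocyte-like class (2206 and 113 cells) held clusters with different leading genes on the 2 days. At day 220 its cluster was also led by HLA class II genes. At day 160 the cluster led by such genes (720 cells) was unnamed and left out. The astrocyte-like cluster of day 160 was led by LGALS3 and HOPX. In this class nuclear-encoded subunits took 2.43% of non-MT- UMIs on both days, with a median log2 ratio of -0.08. In mesenchymal-like cells (274 and 52 cells) they took 2.38% and 2.51%, with a median of -0.07. In cycling-like cells (2164 and 33 cells) they took 2.42% and 2.13%, with a median of -0.21. In neuronal precursor-like cells (1345 and 148 cells) they took 2.55% and 1.97%, with a median of -0.44. This class held different clusters on the 2 days: a cluster with SCGN and CALB2 among its leading genes was in it at day 220, while at day 160 the cluster with these leading genes was named neuron-like and was not. Measured against genes with under 10000 intron bases, the medians turned to 0.16, 0.19 and 0.13 in the astrocyte-like, mesenchymal-like and cycling-like cells and moved to -0.06 in the precursor-like cells.

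ATP5F1E, MT-ATP8 and COX5A kept their order of days in each of these classes. ATP5F1E was at 713.2 and 1421 CPM in astrocyte-like cells and at 734.9 and 1061 CPM in precursor-like cells. MT-ATP8 was at 19.9 and 204.8 CPM in astrocyte-like cells, 21.6 and 213.9 in cycling-like, 17.7 and 166.0 in mesenchymal-like and 21.8 and 279.5 in precursor-like cells. COX5A was at 265.9 and 179.2 CPM in astrocyte-like cells and at 329.0 and 159.8 CPM in precursor-like cells. Of the 79 nuclear-encoded subunits, 13 were higher and 39 lower at day 220 in all 4 classes, and of the 13 mitochondrial genes 5 were higher and 6 lower. Of all genes tested, 42.2% were higher and 24.3% lower in all 4.

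The nuclear-encoded share was also followed over all barcodes with 1000 or more genes, binned by MT- share. At day 160 nuclear-encoded subunits took 2.40% to 2.46% of non-MT- UMIs in cells with up to 20% MT- UMIs, 2.17% from 20% to 30% and 1.07% above 30% (330 cells). The same bin held 16.6% MALAT1, a nuclear RNA, against 3.30% to 3.86% up to 20%, and its part in the lower share was not tested. At day 220 the nuclear share ran from 2.01% in cells under 5% MT- UMIs through 2.21% and 2.42% to 2.45% from 15% to 20%. It was 2.02% from 20% to 30%, close to the lowest bin, and 0.727% above 30%, on 5 cells. The ratio of MT-ND to MT-CO UMIs was 0.242 to 0.275 in day 160 cells with 5% or more MT- UMIs, 0.634 in the 110 cells under 5%, and 0.447 to 0.505 over all bins of day 220. The difference between the days in this ratio was thus present at every MT- share of 5% and over.

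**Figure D5:**
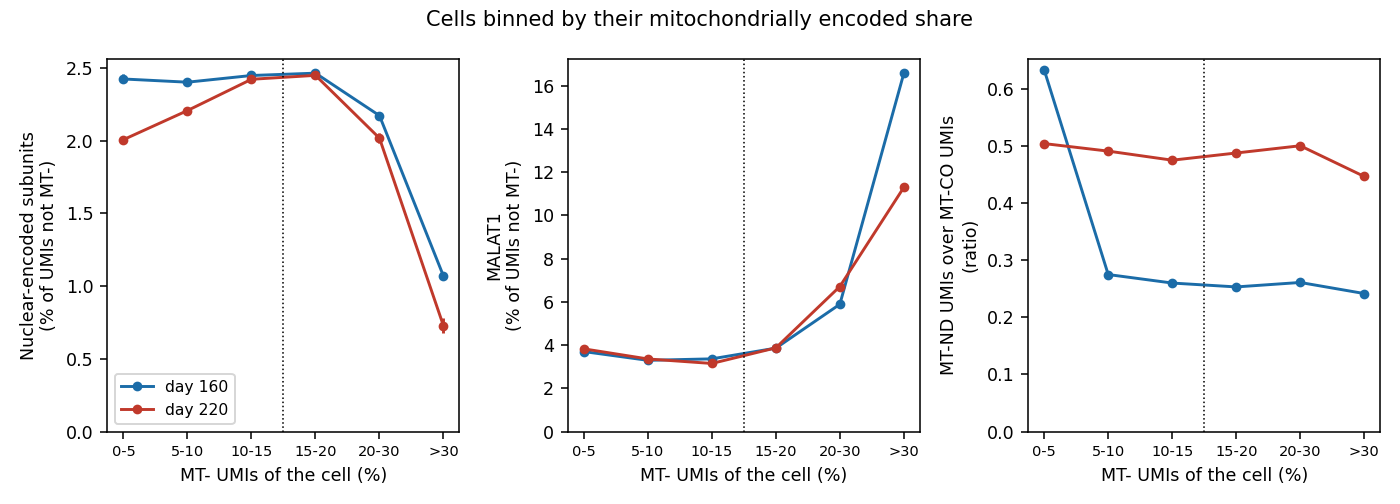
Nuclear-encoded subunits (left) and MALAT1 (middle), both in % of UMIs that are not MT-, and the ratio of MT-ND to MT-CO UMIs (right), in cells binned by their MT- share in %, for day 160 (blue) and day 220 (red). The dotted line is the 15% limit; above 30% the nuclear share is at its lowest and MALAT1 at its highest on both days, and the ratio is lower at day 160 than at day 220 in all bins from 5%.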

How the data were processed

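The deposited matrices hold unnormalized UMI counts for each gene in each barcode. Per the file headers they came from Cell Ranger 7.0.1, and the submitters' processing notes add Seurat 4 and hg38. The use of introns or strand in counting, and any barcode filter: not given in the sources used here. Barcodes with 1000 or more genes and at most 15% MT- UMIs passed (9972 of 13018 and 524 of 676). Scrublet in scanpy 1.11.5 marked 547 and 3 doublets, which were left out. Counts were summed over kept cells and scaled to CPM. CPM intervals are exact Poisson and ratio intervals exact conditional binomial. Clusters came from 2000 variable genes, 30 principal components, 15 neighbours and resolution 0.5, and were named "-like" from at least 2 listed markers among the 10 leading genes, with ties looked up to 30. Positions, introns and coding lengths came from GENCODE 29, matched by gene identifier. The ratio code was tested on simulated data. Members, lists and comparisons were chosen with earlier results of these data known. Named genes were all MT- genes, members past 2-fold, the extremes of the subunits, assembly factors and cluster ranges, complex II, and isoform sets; other names were chosen after their values were seen.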

Additional observations from a re-analysis of the deposited data

Results flagged for a closer look

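Nuclear-encoded subunits, as a share of UMIs that are not MT-, did not run the same way in every cell class. The log2 ratio of day 220 over day 160 was 0.080 in mesenchymal-like cells, -0.19 in cycling-like cells and -0.37 in neuronal precursor-like cells. In astrocyte-like cells it was 0.00044. These were looked at again because 1 class lay above 0, 1 close to it and 2 below it, with 1 library on each day. Set against the UMIs of genes with under 10000 intron bases, a ratio and not a share, subunits were higher at day 220 in all 4 classes. The values were 4.79% and 5.84% in astrocyte-like, 4.88% and 5.64% in cycling-like, 4.64% and 5.995% in mesenchymal-like and 4.92% and 5.12% in precursor-like cells. Directions differed with the first denominator and not with the second; the difference between classes was not tested.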

How the results depend on the processing

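Replicates were not available, so the values below moved where they left the counting interval or, for a list, the interval of its median. Of values that answer a comparison, 108 were within it and 62 moved over 23 settings, and 0 of the 4 members past 2-fold changed sign. Medians and shares did: the mitochondrial median turned to -0.18 with TMM. It also lay below 0 in cycling-like, mesenchymal-like and neuronal precursor-like cells. Set against short-intron genes, nuclear-encoded UMIs and 3 class medians turned to higher at day 220. No paired analysis was possible because each day had 1 library. The MT- and nuclear-encoded member shares at day 160 and day 220 were 12.96%, 2.19%, 9.98% and 2.11% with no MT- limit, 8.56%, 2.27%, 7.45% and 2.11% with a limit of 10%, and 11.62%, 2.27%, 8.58% and 2.04% when thinned to 5000 UMIs (8734 and 491 cells deep enough). With each cell weighing the same they were 11.59%, 2.26%, 8.31% and 2.09%. With a limit of 20% they were 12.42% and 2.21% at day 160 and, for MT-, 9.34% at day 220. With doublets kept, day 160 had 11.69% and 2.22%. The MT- share was 11.66% at day 160 with 500 genes and 8.82% at day 220 with 2000 genes. Without cells under 5% MT- UMIs, a setting chosen after seeing the data, it was 11.75% and 9.05%. Set against the UMIs of genes with under 10000 intron bases, also added, nuclear-encoded members were at 4.98% and 5.86%.

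Members 2-fold lower numbered 0 at 10 CPM or more or with a pseudocount of 5, 2 with the 10% limit and 4 when thinned. They numbered 3 with the total taken without MT- and ribosomal protein genes, 24 with TMM and 6 with intron centring. Members 2-fold higher numbered 1 with TMM and 8 with centring. The share of all genes past 2-fold under these settings is not given here, so the counts cannot be set against it. The median of nuclear-encoded subunits was -0.34 with the total without MT- and ribosomal protein genes and -0.69 with TMM. With cells of all classes together, the mitochondrial minus nuclear median stayed between 0.48 and 0.84 over the settings run. Within single classes the 2 medians lay closer. The mitochondrial and nuclear medians were 0.22 and -0.08 in astrocyte-like cells and -0.02 and -0.21 in cycling-like cells. They were -0.007 and -0.07 in mesenchymal-like cells and -0.09 and -0.44 in precursor-like cells. Clustered with the members, the MT- share of clusters ran from 10.32% to 12.16% at day 160 and from 7.53% at day 220, and precursor-like cells had a median of -0.28. At resolution 0.3 it ran from 10.45% to 12.06% and from 7.54% to 9.24%, with nuclear shares of 2.03% to 2.43% at day 220. At resolution 1.0 it ran from 10.39% and from 7.02% to 9.70%, with nuclear shares up to 2.67% at day 160. With cells over the limit put in the nearest cluster it ran from 10.90% to 13.99% and from 7.29% to 11.69%, so that the days overlapped, with nuclear shares from 2.26% at day 160 and up to 2.49% at day 220. An astrocyte-like class was not named in both libraries under the first 3 of these, so it has no value there. Against genes with under 10000 intron bases, the medians of the classes were 0.16, 0.13, 0.19 and -0.056. The day 220 library limits depth by its 521 cells, and all intervals cover counting error only.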
